A study of Mus musculus with 2 samples.

Results

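Long intergenic noncoding RNAs were read on 1-colour Agilent arrays from mouse embryonic stem cells in which LincU, itself a long intergenic noncoding RNA, had been targeted with a short hairpin RNA. The members are all non-control probes whose annotation opens with the word lincRNA and an interval of the mm9 mouse genome build. There were 4460 such probes, 7.88% of the 56605 non-control probes, and they stood for 4072 loci, each defined by its chromosome, start, end and strand, beside 33253 other genes by name. The cells were the 46C line, grown with serum and LIF (leukaemia inhibitory factor) on feeder cells that were taken off before the RNA harvest. There were 2 groups of 1 array each: shCtrl, a control hairpin in the genotype label although the sample's title calls it WT (wild type), and shLincU, the LincU hairpin. The labels gave no other treatment, allele, time or condition that separated the groups. No probe could be matched to LincU by name, so its knockdown was not checked here and every direction rests on the labels. With 1 array a group no difference has a replicate check and no test was made. Any difference between these 2 arrays may therefore be one between 2 samples and not between the conditions.

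A long intergenic noncoding RNA (lincRNA) is a transcript that lies between protein-coding genes and has no recognised open reading frame. Many such intervals were first drawn from chromatin marks of active promoters and transcribed regions, which carry no strand, so that arrays were often given a probe for each strand of an interval. In embryonic stem cells some lincRNAs are needed for the pluripotent state, others act on a neighbouring gene, and for most no role is known.

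Each lincRNA probe was a single strand of 60 bases, so what a locus reports depends on where that stretch lies and on which other transcripts share it. The probes of the loci with the 5 highest signals are shown because they frame what a bright lincRNA signal looked like on this array. Capitals mark the letters AATAAA, the usual polyadenylation signal.
chr11:22681800-22707775, reverse strand: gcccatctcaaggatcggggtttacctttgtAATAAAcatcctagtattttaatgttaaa
chr17:48068261-48087905, forward strand: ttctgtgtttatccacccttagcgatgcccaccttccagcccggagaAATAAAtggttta
chr7:108209996-108216032, reverse strand: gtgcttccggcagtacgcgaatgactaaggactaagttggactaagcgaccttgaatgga
chr14:78924115-78938125, forward strand: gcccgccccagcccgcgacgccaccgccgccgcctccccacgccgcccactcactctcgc
chr17:17481706-17482457, reverse strand: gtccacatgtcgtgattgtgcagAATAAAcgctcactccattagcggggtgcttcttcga
AATAAA was present in 3 of these 5 probes. Over all lincRNA probes with usable spots it occurred on the probe strand in 178, or 4.0%, against 10.3% of all other probes, and its reverse complement TTTATT in 2.74% against 3.94%. The match is a description of the letters and not of a site in use. lincRNA probes with AATAAA were well above background on both arrays in 51.1% of 178 cases, and those without it in 48.7% of 4277.

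The next 4 sequences are those of the pair of loci with the lowest differences in the upper rows of the array, defined below, both on the forward strand of chromosome 1. They are shown because the probes of one locus carry long runs of bases that the probes of the other also hold, marked in capitals.
chr1:87343550-87362900, first probe: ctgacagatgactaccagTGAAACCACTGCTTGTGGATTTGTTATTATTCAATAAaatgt
chr1:85117750-85129200, first probe: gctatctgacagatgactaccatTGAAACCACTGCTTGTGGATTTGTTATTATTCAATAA
chr1:87343550-87362900, second probe: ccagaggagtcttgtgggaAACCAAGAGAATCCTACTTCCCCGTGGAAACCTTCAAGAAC
chr1:85117750-85129200, second probe: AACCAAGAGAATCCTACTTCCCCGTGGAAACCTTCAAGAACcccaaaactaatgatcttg
The first probes shared a run of 37 bases and the second probes a run of 41. One RNA could bind the probes of both loci, so these loci cannot be counted as separate readings.

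The last 6 are the probes of the remaining loci that the account below turns on: a strand pair whose probes overlap head to head, a locus whose probes disagreed, and the loci with the highest and the lowest difference in the upper rows among loci at or above the median lincRNA level whose probes share no run with another locus. In the strand pair, capitals mark the 53 bases that each probe holds as the complement of the other; elsewhere they mark AATAAA.
chr19:56580315-56592490, forward strand: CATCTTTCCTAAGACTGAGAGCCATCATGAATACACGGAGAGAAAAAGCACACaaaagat
chr19:56580315-56592490, reverse strand: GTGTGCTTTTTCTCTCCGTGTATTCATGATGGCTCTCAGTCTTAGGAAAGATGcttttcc
chr2:60531602-60543635, reverse strand, probe at 60531683: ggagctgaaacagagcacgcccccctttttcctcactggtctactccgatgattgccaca
chr2:60531602-60543635, reverse strand, probe at 60543554: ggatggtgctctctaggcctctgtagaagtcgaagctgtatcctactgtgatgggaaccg
chr14:21461716-21462270, forward strand: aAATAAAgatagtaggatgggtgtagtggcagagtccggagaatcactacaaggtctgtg
chr16:9129538-9137898, forward strand: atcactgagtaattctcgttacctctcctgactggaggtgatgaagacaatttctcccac

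The loci lay on 20 chromosomes, with 2072 on the forward and 2000 on the reverse strand. Their intervals ran from 62 to 538251 bases with a median of 10251. A single probe stood for 3756 of them and 316 had 2 to 6 probes. Of the 4369 probes with a mapped position, 4368 lay inside their interval and all lay on its strand.

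Differences between the arrays as such bear on all that follows. The 75th percentile of the processed signal was 626 for shCtrl and 420 for shLincU, and levels below are log2 of the signal minus that percentile of the same array, so that 0 is a signal at the percentile. The spots were divided by row into an upper and a lower block of 6 bands with 32 rows each, because lower spots were far apart between the arrays more often than upper ones. Among lincRNA spots, after signals under the lowest detected signal of an array were raised to it, 24 of 2246 in the upper rows were at least 2-fold apart (1.07%) and 108 of 2259 in the lower rows (4.78%). At least 4-fold apart were 1 and 42 of them. In each of the 6 upper bands the share was at most 1.55%, and it reached 7.82% in the lower band of rows 321 to 352. Of the 108 lower spots, 58 lay beside discordant spots, meaning that at least 2 of their 14 nearest spots were 2-fold apart in one direction, whatever gene those spots read. In the upper rows none of the 24 did. Of all lincRNA spots, 10.5% of the lower and 0.76% of the upper ones lay so. Among spots of other genes at least 2-fold apart, 54.1% of the lower and 1.34% of the upper ones did. Results are therefore given for both blocks.

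**Figure D1:**
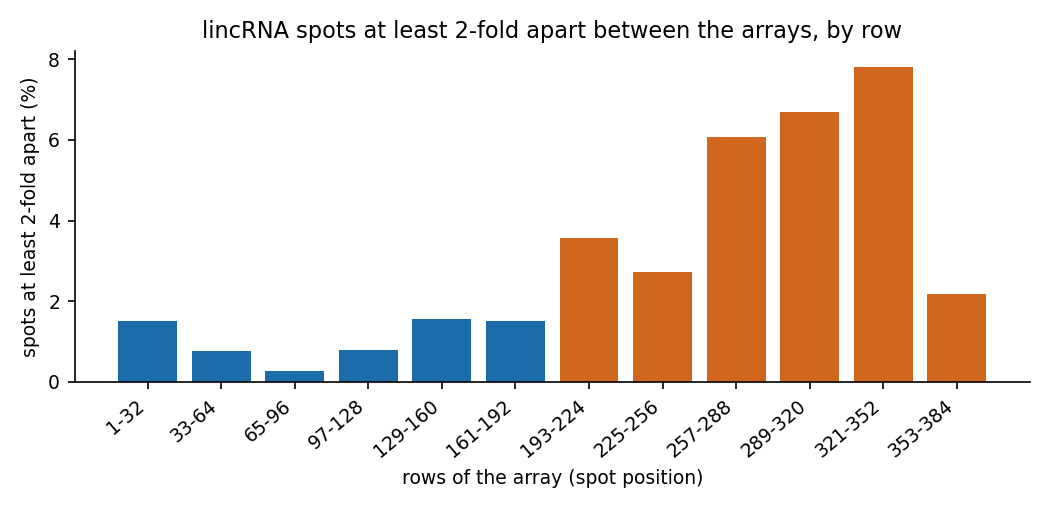
The share of lincRNA spots at least 2-fold apart between the shCtrl and the shLincU array (y axis, percent) in 12 bands of 32 rows of the array (x axis). Blue bars are the upper rows, with at most 1.55%, and orange bars are the lower rows, with 2.17 to 7.82%.

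As a check of the labelled cell type, all 10 embryonic stem cell markers on a list that included Pou5f1, Sox2 and Nanog were well above background on both arrays, with a median difference of 0.01 and no member 2-fold apart. All 10 fibroblast markers, which feeder cells would express, were detected too. Of these, 7 were lower on the shLincU array, 5 of them at least 2-fold, and the median difference of the list was -1.07. In RNA from a whole culture, fewer cells of a type and less RNA per cell cannot be told apart. The part of fibroblast RNA in the lincRNA differences was not tested.

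A little over 50% of the lincRNA probes gave a signal on each array. Well above background were 54.7% of the 4455 usable probes for shCtrl and 50.9% for shLincU, against 61.4% and 58.5% of all other probes. Both arrays detected 48.8% and neither detected 43.1%. Of 308 negative control spots, 1.30% for shCtrl and 2.60% for shLincU carried the same flag. In the upper rows the shares of lincRNA probes were 53.4% and 48.6%, and in the lower rows they were 56.1% and 53.3%. The lower share on the shLincU array was thus present in both blocks and among the other probes as well.

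**Figure D2:**
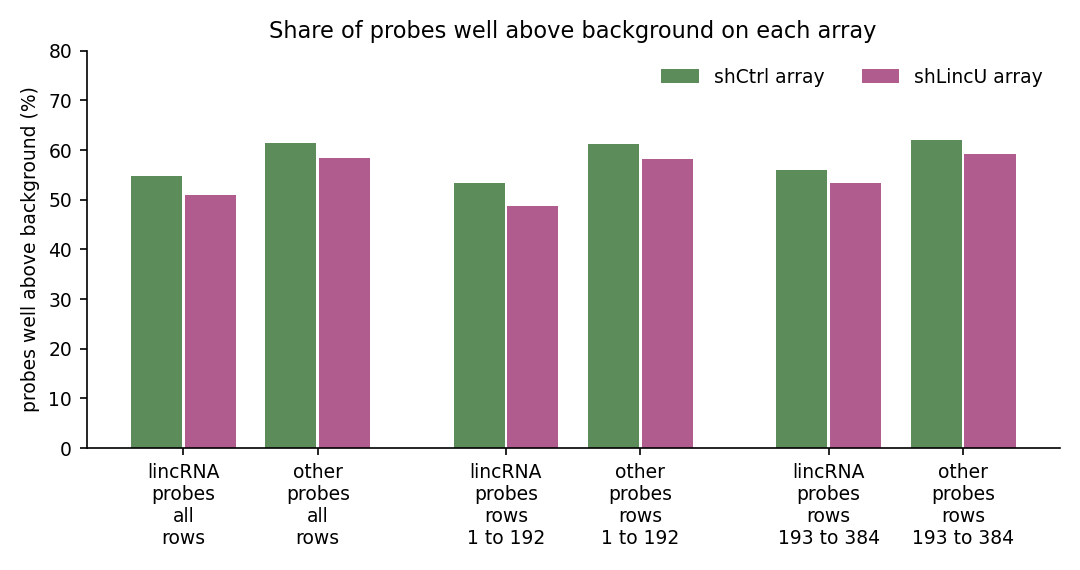
Percent of probes well above background (y axis) on the shCtrl array (green) and the shLincU array (purple), for lincRNA probes and all other probes, over all rows and in each block of rows (x axis). In each of the 6 pairs of bars the shCtrl array is higher, and the lincRNA probes, at 48.6 to 56.1%, are below the other probes.

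By locus, 2023 of 4072 (49.7%) had a probe well above background on both arrays and are called measured, against 57.6% of other genes. The share was lowest among the shortest of 4 equal classes of interval length, with 37.8%, and was 51.2, 54.4 and 55.3% in the longer ones. By chromosome it ran from 36.5% on chromosome 3 to 58.8% on chromosomes 4 and 17. Loci that form a strand pair were measured in 57.1% of cases and those without a partner in 44.6%, and the former were longer, with a median of 17551 bases against 2538.5.

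Most measured lincRNA loci were dim. Their median level, the mean of both arrays, was -2.30, against -0.34 for the other genes, and 23.7% stood at or above the median of all features. A probe's brightness depends on its own bases as well as on its RNA, so these are levels of signal and not of transcript number. Only 21 loci were within the brightest 5% of all features. The 5 brightest, whose probes are printed above, were not saturated. For chr11:22681800-22707775 on the reverse strand the signal was 194840 for shCtrl and 156897 for shLincU, which after scaling is a level of 8.28 and 8.54. The reverse strand of chr7:108209996-108216032 gave 159223 and 135056, or levels of 7.99 and 8.33. Differences of the 5 were between 0.26 and 0.37, against a scanner error of 0.20 for each. The brightest probe held a run of 26 bases also found in the probe of chr2:167085700-167117795 on the reverse strand, where the difference was 0.30.

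As a group, lincRNA loci were slightly higher on the shLincU array than other genes were. The median difference, shLincU minus shCtrl on the log2 scale, was 0.09 with quartiles of -0.14 and 0.31, and that of the other genes was 0.01 with quartiles of -0.18 and 0.19. Above 0 were 62.1% of measured lincRNA loci and 52.0% of the other genes. For a single locus the median scanner error of the difference was 0.22, and 81.9% of the loci differed by at most 0.5. The median of the group was of like size in the upper rows, with a median of 0.09, and in the lower rows, with 0.10. When all features were cut into 4 equal classes by level, the lincRNA medians were 0.11, 0.08, 0.10 and 0.12 from the dimmest to the brightest class, while those of other genes were 0.03, -0.00, -5.14e-05 and 0.03. Under quantile normalization, cyclic loess and in the deposited value table the gap between the 2 groups was 0.08 to 0.09, and it was 0.15 after another background correction, normexp with an offset of 50. Scaling to the E1A spike-in controls moved both medians down, to -0.78 and -0.86, so that the sign of the lincRNA median rests on the scaling. That scaling shifts all features of an array by 1 constant and cannot alter the gap.

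**Figure D3:**
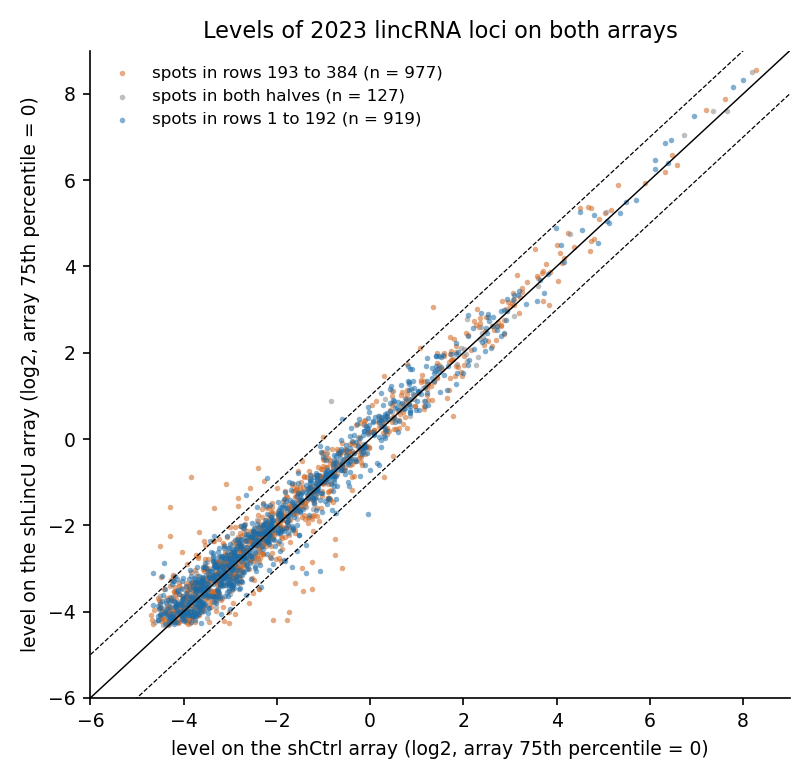
Level of each of the 2023 measured lincRNA loci on the shCtrl array (x axis) and the shLincU array (y axis), both log2 with the array's 75th percentile at 0. The solid line marks equal levels, dashed lines mark 2-fold, and the points farthest from the line are mostly orange, from spots in the lower rows.

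Base composition moved with the difference. lincRNA probes had a median of 45% G and C against 41.7% for other probes. From 35% upward the median difference was larger in probes richer in G and C. Among measured lincRNA probes it was 0.00 at 35 to 40%, 0.06 at 40 to 45%, 0.10 at 45 to 50%, 0.12 at 50 to 55% and 0.18 at 55% or more. In the same bins the other probes had medians of -0.04, 0.01, 0.03, 0.09 and 0.09, below the lincRNA median in each of these 5 bins. The poorest bins, with few lincRNA probes, did not follow this order. Under 30% the median was 0.12 over 16 lincRNA probes and -0.04 over 220 other probes. At 30 to 35% it was -0.17 over 12 lincRNA probes, lower than the 0.03 over 249 other probes. The part of base composition in the shift was not tested.

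**Figure D4:**
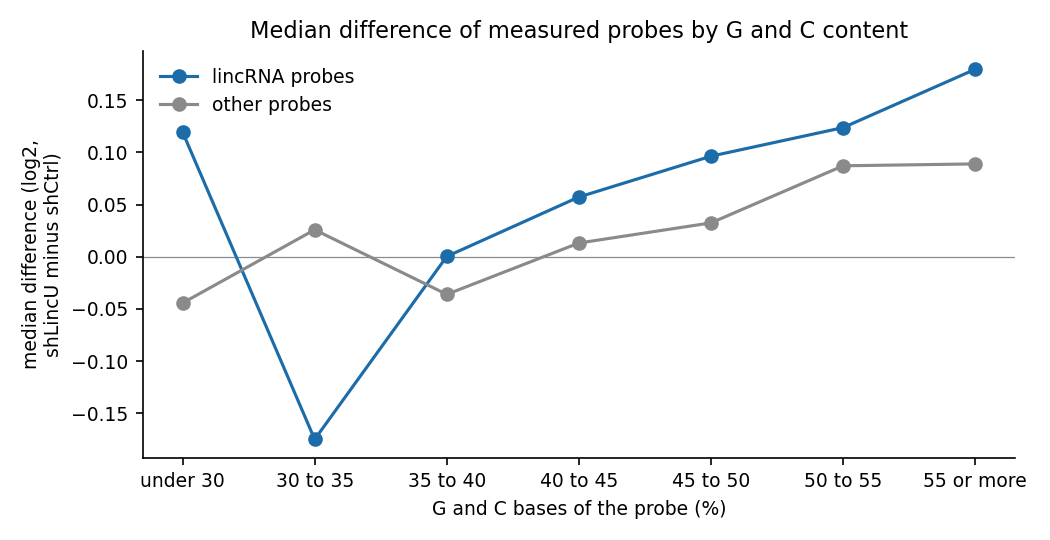
Median difference of measured probes between the arrays (y axis, log2, shLincU minus shCtrl) in 7 bins of G and C content of the probe (x axis, percent), for lincRNA probes (blue) and other probes (grey). From 35% upward the lines go from 0.00 to 0.18 and from -0.04 to 0.09 with the lincRNA line on top, while in the 2 poorest bins the lincRNA points, from 16 and 12 probes, stand at 0.12 and -0.17.

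Few loci differed by 2-fold. Over all rows 35 lincRNA loci were at least 2-fold higher on the shLincU array, 1.73% of those measured against 1.15% of all features, and 28 were lower by as much, 1.38% against 1.55%. In the upper rows there were 9 higher and 8 lower of 1020, or 0.88% and 0.78%, where the shares over all features were 0.669% and 1.21%. In the lower rows there were 27 higher and 20 lower of 1078, or 2.50% and 1.86%, against 1.57% and 1.79% of all features. Without spots beside discordant spots 22 were higher and 17 lower of 1903, or 1.16% and 0.89%, where 0.803% and 1.31% of all features were. At least 4-fold apart in either direction were 11 loci over all rows (0.54%, against 0.397% of all features), 0 in the upper rows (against 0.163%), 12 in the lower rows (1.11%, against 0.546%) and 2 without the spots beside discordant spots (0.11%, against 0.227%). Of the 35 higher loci, 26 had their spots in the lower rows and 13 had a spot beside discordant spots; of the 28 lower loci it was 20 and 11. Over all lincRNA spots, 10.5% of the lower and 0.76% of the upper ones lay beside discordant spots. Only 1 of the 63 had a second measured probe. In all rows and in each selection of spots the share of higher loci was above that of all features. The share of lower loci was below it except in the lower rows, where it was slightly above, and no difference between the shares was tested. Measured probes were averaged by locus or gene. At least 2 were measured in 132 of 2023 lincRNA loci and in 6956 of 19153 other genes. The shares are therefore not matched for the number of probes. The dimmest of the 4 classes by level held 49.1% of measured lincRNA loci and 22.5% of other genes. In that class 2.11% of lincRNA loci were higher and 1.41% lower, against 3.09% and 3.09% of other genes. In the brighter classes the higher shares were 1.45, 1.67 and 0.56%, against 1.12, 0.32 and 0.14% of other genes. The lower shares there were 2.18, 0.67 and 0.00%, against 2.34, 0.86 and 0.25%. The loci just past and just under the limit differed by little: 1.0006 and 0.9966 on the higher side, and -1.0001 and -0.9977 on the lower side. With normexp 15 were higher and 8 lower (0.74% and 0.40%), against 0.453% and 0.51% of all features. Taken relative to the median of other genes under normexp, these became 8 higher and 11 lower. With scaling to the E1A spike-in controls 5 were higher and 525 lower (0.25% and 26.0%), against 0.213% and 30% of all features, and taken relative to the median of other genes these became 33 and 29.

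In the upper rows, among loci at or above the median level of measured lincRNA loci, the highest difference was that of chr14:21461716-21462270 on the forward strand, an interval of 555 bases. Its signal was 99.3 for shCtrl and 171 for shLincU, or levels of -2.66 and -1.30, a difference of 1.36 with a scanner error of 0.22. A longer locus on the same strand, chr14:21437920-21464655, contains it, and its probe differed by -0.23. The 2 readings of this stretch thus pointed in opposite directions. Next came chr18:84306000-84306316 on the forward strand, with signals of 134 and 225 and a difference of 1.32. Then chr1:158979050-159007700 on the forward strand followed, with signals of 410 and 581 and a difference of 1.08, while the reverse strand was not well above background on either array. The remaining 5 were under 2-fold, between 0.85 and 0.92. Among them chr6:121035216-121035648 on the reverse strand was bright, with signals of 9869 and 12419 and a difference of 0.91, and the locus that overlaps it, chr6:121035524-121061074, differed by 0.08. With normexp chr1:158979050-159007700 came to 0.95.

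On the lower side in the same rows stood the pair of chromosome 1 loci whose probes are printed above. For chr1:87343550-87362900 the first probe gave 296 for shCtrl and 50.3 for shLincU, a difference of -1.98 with a scanner error of 0.24. For chr1:85117750-85129200 the first probe gave 241 and 48.7, a difference of -1.73 with an error of 0.24. Their second probes, which share the other run, were not well above background on either array. The nearest gene outside chr1:87343550-87362900 with an mm9 position on the array was Sp110, 110632 bases away, with a difference of -0.68. After these came chr16:9129538-9137898 on the forward strand, with signals of 609 and 127, levels of -0.04 and -1.73 and a difference of -1.69. No other gene probe lay within 271334 bases of it, and the reverse strand was not well above background. Next were chr5:125713450-125735500 and chr14:14688472-14747272, both on the reverse strand, at -1.08 and -1.02, and chr1:133839368-133839762 on the forward strand at -1.0001. The other two were under 2-fold. With normexp these differences were smaller: -1.13 for chr1:87343550-87362900, -0.90 for chr1:85117750-85129200, -1.25 for chr16:9129538-9137898, -0.60 for chr5:125713450-125735500, -0.55 for chr14:14688472-14747272 and -0.69 for chr1:133839368-133839762. A locus that overlaps chr14:14688472-14747272 on the same strand, chr14:14660983-14746992, differed by -0.39. Gm281, read inside chr14:14688472-14747272 on the same strand, differed by 0.14. The forward strand of chr5:125713450-125735500 was well above background on the shCtrl array only.

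Larger differences stood in the lower rows, set apart here. The highest was that of the lower probe of chr2:60531602-60543635 on the reverse strand, with 29.2 for shCtrl and 168 for shLincU, a difference of 3.10. The other probe of the same locus, in the upper rows, gave 4184 and 3548, a difference of 0.34. The locus mean of 1.72 therefore rests on 1 spot. Next were chr18:55149963-55239068 on the forward strand at 2.96 and chr13:31736054-31781679 on the forward strand at 2.72. The lowest were chr9:96664617-96683617 at -2.39, chr19:56580315-56592490 at -2.39 and chr8:42462791-42466106 at -2.27, all on the reverse strand. Each of these 6 loci had a spot beside discordant spots.

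Detection on 1 array only gives a bound, taken against the lowest detected signal of the other array or the probe's own signal there, whichever is higher. There were 254 loci well above background on the shCtrl array only and 90 on the shLincU array only. The bound was at least 2-fold for 24 of the 254 (9.45%), against 15.8% of all features so seen, and for 34 of the 90 (37.8%), against 46.8%. No fold can be given for 103 of the 254. In the upper rows 3 of 121 (2.48%) and 2 of 19 (10.5%) reached 2-fold, against 6.07% and 22.2% of all features so seen there. In the lower rows it was 22 of 137 (16.1%) and 34 of 76 (44.7%), against 22.1% and 53.3%. Without spots beside discordant spots it was 8 of 225 (3.56%) and 22 of 73 (30.1%), against 7.92% and 31.6%. Among the upper loci chr10:39383665-39442690 on the forward strand was at least 2.92-fold lower on the shLincU array, where its signal of 10.8, against 89.99 on the shCtrl array, was not well above background. In the other direction chr11:59193573-59193832 on the reverse strand was at least 3.22-fold higher, with 9.56 and 51.5. In the lower rows the widest bounds were at least 13.2-fold lower for chr10:126151060-126156450 on the reverse strand and, in the other direction, at least 19.0-fold for chr6:86541423-86543598 on the forward strand, and both had spots beside discordant spots.

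The array holds 832 strand pairs, intervals with a locus on each strand. In 287 of them (34.5%) both strands were measured, in 376 (45.2%) one strand and in 169 (20.3%) neither. Detection of one strand went only little with that of the other: the reverse strand was measured in 63.8% of pairs in which the forward strand was and in 55.8% of those in which it was not. The differences of the strands were weakly related at most. In 158 of the 287 pairs (55.1%) they had the same sign, 119 with both strands higher and 39 with both lower, and in 129 the signs were opposite, where 62.1% of all loci were above 0. Over the 287 pairs the r of Pearson was 0.07 and the rho of Spearman 0.09; the pairs share the arrays and often part of their probe's bases, and the median gap between the strands was 0.33. The gap was the same whether the probes overlapped (0.33 over 60 pairs), lay within 1000 bases (0.32 over 91) or farther apart (0.33 over 132). No pair had both strands 2-fold in one direction, and 15 had one strand so. In the upper rows alone 45 of 82 pairs had the same sign, and in the lower rows 44 of 83, with r of 0.07 and 0.08. Without spots beside discordant spots it was 143 of 255, with r of 0.15. With normexp the share of pairs with one sign was 72.8%, under which the lincRNA median was 0.22 and 81.3% of loci were above 0.

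The widest gap was that of chr19:56580315-56592490, whose probes are printed above. The forward probe gave levels of 0.84 and 1.33, a difference of 0.49, and the reverse probe -0.60 and -2.98, a difference of -2.39. Their 53 shared bases are complements, so each probe reads its own strand of nearly the same stretch. The reverse spot lay in the lower rows beside discordant spots and the forward spot in the upper rows. The next, chr13:31736054-31781679 and chr14:44284425-44300475, had gaps of 2.72 and 1.78, again with the larger difference on a lower spot beside discordant spots. Among the pairs, 3 stood out for the brightness of their dimmer strand. For chr17:35080914-35090009 the differences were -0.27 on the forward and -0.17 on the reverse strand, and for chr5:74487385-74497428 they were -0.02 and -0.14. In chr11:22681800-22707775 they were -0.17 and 0.26, of opposite sign and with a gap of 0.43.

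Most differences of lincRNA loci were small, and those of several probes of a locus mostly lay close together but were weakly correlated. Of 315 loci with at least 2 usable probes, all probes were measured in 124, some in 95 and none in 96. In 132 loci at least 2 probes were measured, and the SD of their differences had a median of 0.16, against 0.18 in 6956 other genes with several measured probes. All probes had the same sign in 84 of the 132 (63.6%), against 52.9% of the other genes, and the range passed 1 in 5. The number of probes was not matched between the 2 groups, and 62.1% of lincRNA loci and 52.0% of other genes were above 0. The shares of 1 sign therefore do not compare how well probes agree. Among the 39 loci with a median beyond 0.3 in either direction, 36 had all probes on one side, and among other genes it was 1240 of 1486. Such loci were picked by the same differences, which favours 1 sign, so these counts do not measure agreement. The r of a locus's first 2 probes was 0.28 over the 132 loci. Probes of a locus share their RNA and their arrays and are not replicates.

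The locus with the most measured probes, chr10:62347876-62374346 on the reverse strand, had 4 between 0.11 and 0.14. Those of chr12:55844075-55898175 on the reverse strand, which holds probes of Snx6, a sorting nexin, differed by 0.27, -0.00 and 0.01. In chr14:22267795-22319045 on the forward strand they were -0.35, 0.41 and 0.11, and in chr11:117835849-117842574 on the reverse strand 0.36, -0.50 and 0.27. Besides chr2:60531602-60543635, with a range of 2.76, the widest ranges were 1.34 in chr7:4827340-4863315, with 0.13 and -1.21, and 1.15 in chr6:39205913-39248468, with -0.55 and 0.60, both on the reverse strand and with no spot beside discordant spots.

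Probes of different loci that share a stretch of bases mostly had like differences. A run of at least 20 bases was shared by 150 lincRNA probes (3.36%) with a probe of another locus or gene in the same orientation, by 116 with another lincRNA locus and by 40 with another gene. Of 69 such pairs between lincRNA loci, 24 joined overlapping intervals and 45 intervals that were apart. Both probes were measured in 34 pairs: 27 had the same sign, the median gap was 0.17 and r was 0.88, or 0.76 over 33 pairs without the chromosome 1 pair. Of these 34, 14 joined overlapping intervals, and among the 20 whose intervals were apart 16 had the same sign, with a median gap of 0.19. Over the 50 measured pairs with a probe of another gene 45 had the same sign and the median gap was 0.06, although a few lincRNA probes, such as that of chr18:47313842-47315840, recur in many of these pairs. In the opposite orientation, where a probe holds the complement, 30 of 52 measured pairs between lincRNA loci had the same sign and r was -0.03, and of 87 pairs with a probe of another gene 62 had the same sign (71.3%) and r was -0.09. No test compared these kinds of pairs. These pairs share arrays, bases and some of their probes, and the values are a description.

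Probes of other genes fell inside many of the intervals. In 540 loci (13.3%) such a probe lay on the same strand and in 591 (14.5%) on the opposite strand. Where locus and gene were both measured, the signs agreed in 129 of 230 (56.1%) on the same strand, with r of 0.13, and in 127 of 237 (53.6%) on the opposite strand, with r of 0.02. None of the 3 loci at least 2-fold apart with a measured gene inside on the same strand, nor of the 3 on the opposite strand, had the gene on the same side. Outside the interval the nearest probe of another gene was a median of 13401.5 bases away, and the signs agreed in 693 of 1371 measured pairs (50.5%).

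Loci near regulators of pluripotency and early development were looked at for 57 genes. Within 100 kb of a probe of these genes lay 55 loci beside 24 genes, of which 33 were measured. Their median difference was 0.03 and 21 were above 0. None was 2-fold higher and 2 were lower by 2-fold or more, where 1.15% and 1.55% of all features were. By list, the 10 measured loci beside naive pluripotency genes had a median of 0.00, the 3 beside core factors 0.01, the 5 beside formative and primed genes 0.42, the 9 beside mesendoderm and early lineage genes 0.22 and the 6 beside signalling genes 0.14. The median of 0.42 was the value of a locus around Pou3f1, where most of those 5 loci lie. Locus and gene had the same sign in 14 of 29 pairs in which both were measured.

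The nearest was chr10:98730529-98741718 on the forward strand, 485 bases from a probe of Dusp6, a phosphatase that acts on ERK kinases. Its level was -3.03 for shCtrl and -4.28 for shLincU, a difference of -1.25 with a scanner error of 0.36, while Dusp6 differed by 0.37. The shLincU level of this locus was close to the lowest detected level of that array, -4.34, and its spot lay in the lower rows. The other one at least 2-fold lower was chr4:55465247-55494547 on the reverse strand, 46286 bases from Klf4, a naive pluripotency factor, at -1.55 against -0.25 for Klf4, and that spot lay beside discordant spots. Around Pou3f1, a POU factor of the primed state that differed by 0.34, chr4:124127144-124334840 read -0.42 on the forward strand and 0.42 on the reverse strand, and chr4:124206166-124334412 on the reverse strand read 0.75. Beside Meis2, a homeobox gene at -0.10, chr2:115892960-115911647 on the forward strand differed by 0.32. Beside Prdm14, a repressor that guards the naive state and differed by -0.27, chr1:13058312-13099826 differed by 0.01 on the forward and 0.37 on the reverse strand. The nearest loci of Foxd3 and Spry4 and the shorter one of Meis2 were not well above background on either array. The brightest locus within 100 kb of a listed gene, picked after its value was seen, was chr8:74820025-74833350 on the forward strand, 11787 bases from Klf2, another naive factor. Its levels were 4.81 and 4.65, a difference of -0.16, and Klf2 differed by 0.02.

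There were 10 loci that carry the name of a known transcript on the array, and they were picked out after their values were seen. HOTAIR, which acts at Hox genes, lincP21, a p53 target beside Cdkn1a, and PINC were not well above background on either array. NEAT1, which builds paraspeckles, had levels of 2.87 and 2.75 and a difference of -0.12, and 2 other Neat1 probes inside it differed by a mean of -0.15. For TUG1 the levels were 1.98 and 1.47, a difference of -0.51, while the array's other Tug1 probe inside it on the same strand stood at 0.42. The longer lincRNA locus around it, chr11:3538125-3554450 on the reverse strand, differed by -0.77. The array places its KCNQ1ot1 locus, chr7:150399015-150482452, on the forward strand and what it lists as Kcnq1ot1 inside it on the opposite strand, and the differences were 0.16 and -0.02. H19 was well above background on the shCtrl array only, with 26.3 and 4.49, for which no fold can be given, and H19 as read outside the lincRNA probes differed by -1.77. The spot of the H19 lincRNA probe lay beside discordant spots. TSIX, the antisense partner of Xist, had signals of 342 and 163 and a difference of -0.49, and XIST, which silences the X chromosome, signals of 96.6 and 105 and a difference of 0.70. As read outside the lincRNA probes, Tsix differed by -0.29 and Xist had no measured difference. NRON, near background at 43.9 and 33.0, differed by 0.16.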

How the data were processed

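The scanner files hold processed intensity values and their errors, read out by the authors in Agilent's Feature Extraction software (version 10.7.1.1 in the submitters' processing notes) and detrended for background, per the file headers. The flags for spots well above background and for outliers are other columns of 0 or 1, per the file headers. The deposited value table holds log2 values with a median of 5.65 in both columns and a slope on the log2 signals of 0.98 and 1.01 over 56605 probes; its normalization and centring are not stated in those sources.

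Levels are log2 of the processed intensity minus the array's 75th percentile over non-control probes. Outlier spots were left out, spots of a probe averaged, and probes measured on both arrays averaged by locus. Other genes were named by RefSeq accession (GRCm38, names only) for 32989 of 52145 probes and by the array otherwise. Differences are shLincU minus shCtrl, with the software's own error and no p-value, since each group has 1 array. The number of arrays limits the precision. Named loci are those with the most extreme differences in the upper rows at or above the median level and in the lower rows, the brightest, the widest bounds, the strand pairs with the widest gap or brightest strands, the loci with most probes or widest ranges, and the 10 nearest a listed gene; exceptions are named as such. The members, lists and rules were chosen with earlier results of these data known. Other scalings, background corrections, filters, fold sizes and spot selections were tried (limma 3.58.1, R 4.3.3; pandas 2.3.3), and the steps were tested on simulated data.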

Additional observations from a re-analysis of the deposited data

How the results depend on the processing

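No paired analysis was possible because there was 1 array per group, so none could be left out either. Shares of detected probes were 77.7% (shCtrl) and 74.7% (shLincU) by the positive and significant flag, with 152 loci on the shLincU array only and bounds of at least 2-fold for 70 and 86 loci. The counts of lincRNA loci at least 2-fold higher and lower were 35 and 28; they were 15 and 8 with normexp, 5 and 525 with E1A scaling, 232 and 165 with no background filter, 14 and 13 at or above the median level, 180 and 80 at 1.5-fold, 9 and 12 at 3-fold, 9 and 8 in the upper rows, and 22 and 17 without spots beside discordant spots. Quantile, cyclic loess and median scaling, the deposited table, the brightest or median probe, kept outlier spots, an added limit of about 2 times the scanner error and the lower rows left these counts within 1.5 times. No share over all features is given for no background filter, loci at or above the median level, 1.5-fold and 3-fold. The same holds for the bounds by the positive and significant flag and with normexp. Those counts show only how the setting moves them and are not results about lincRNA loci. The median difference was -0.78 with E1A scaling. Strand pairs with both strands measured numbered 830 with no filter, 88 at or above the median level, and 82 and 83 in the upper and lower rows; 72.8% had one sign with normexp. On 1 array only stood 121 and 19 loci in the upper rows and 137 (shCtrl) in the lower; bounds of at least 2-fold were 5 and 17 with normexp, 3 and 2 in the upper rows, and 8 and 22 without spots beside discordant spots. The shLincU share was 48.6% in the upper and 53.3% in the lower rows. Beside listed genes 18 and 17 loci were measured in the upper and lower rows, 20 within 50 kb and 94 within 500 kb; those at least 2-fold lower were 7 with E1A scaling (median -0.84), 1 with normexp or without spots beside discordant spots, and 0 in the upper rows. Of 399 recomputed differences of 33 named loci, 326 moved by less than their scanner error and 73 by more; of the 176 for loci at least 2-fold apart, 17 came out under 2-fold and none changed sign. Fewer loci or spots under filters and blocks follow from how those settings were made; for the others the cause was not tested. Signals near background limit what can be said of the dimmer loci.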
